A study of Homo sapiens with 6 samples.

Results

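The genes described here serve the lysosome and autophagy: 49 genes of the TFEB family of transcription factors, the lysosomal membrane, the lysosomal hydrolases, the vacuolar proton pump (V-ATPase) and the autophagy machinery. Members were chosen by gene symbol. Where a gene had several probe sets, the brightest on average stood for it, and all 49 were measured among the 18417 genes tested. Total RNA of Du145 cells, an established human prostate carcinoma line, was hybridised to 6 arrays, 2 in each of 3 groups: shTSC2-adapted cells (also labelled shTSC-adapted, and described as adapted from the knockdown), shTSC2 cells (knockdown of TSC2) and control cells. All 3 groups were kept under 1% oxygen for 24 h in high-glucose medium with 10% serum, so no group shows the cells in air. What the cells adapted to, which hairpin was used, whether a virus was given to control cells and whether the lines were clones or pools are not stated in the labels. An effect of the virus or the hairpin cannot be told apart from an effect of lower TSC2. Nothing in the labels says that the arrays of a group came from separate cultures, so the p-values rest on an array-to-array spread that may be purely technical.

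TSC2 is the active subunit of the complex that switches off RHEB and thereby restrains mTORC1, a kinase that is activated on the surface of the lysosome. Active mTORC1 phosphorylates TFEB, TFE3 and MITF and holds them in the cytoplasm. In the nucleus these factors bind the sequence TCACGTG in promoters of lysosomal and autophagy genes. mTORC1 also phosphorylates ULK1 and ATG13, and so restrains the start of autophagy, in which a membrane grows around cargo and delivers it to the lysosome for digestion by acid hydrolases. The arrays measure RNA only, not phosphorylation, location in the cell, acidity or autophagic flux.

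As a check of the labels, TSC2 had log2 intensities of 6.54 and 6.48 in shTSC2-adapted cells, 6.67 and 6.55 in shTSC2 cells and 7.52 and 7.59 in control cells. It was lower by a log2 difference of -0.945 ± 0.10 in shTSC2 cells (SE, 2 arrays a group, limma adjusted p = 0.00102) and by -1.045 ± 0.10 in shTSC2-adapted cells (adjusted p = 0.0241), both against control. The second call ended when any 1 of the 4 arrays compared was left out (differences -1.08 to -1.01, adjusted p 0.0973 to 0.386), and the arrays of both groups did not overlap. Median intensities of the arrays were 58.1 to 63.1 on the linear scale. Of 6 genes listed for Du145 carcinoma cells (KRT8, KRT18, KRT19, EPCAM, CDH1 and the mesenchymal VIM), 4 lay above the median gene on all arrays. The summed linear intensity of the 6 was 7437 to 7630 in shTSC2-adapted cells, 7146 to 7547 in shTSC2 cells and 6779 to 7150 in control cells. This sum was carried mostly by KRT8, KRT18 and VIM, the brightest of the 6, and says little of the others. In shTSC2 cells against control KRT19 (-1.38, adjusted p = 0.00664) and EPCAM (-1.285, 0.0271) fell, and KRT8 (0.265), KRT18 (0.17), CDH1 (-0.14) and VIM (-0.075) did not pass. KRT19 (1.55, adjusted p = 0.00772), EPCAM (1.645, 0.0173) and CDH1 (1.54, 0.00756) were higher in shTSC2-adapted than in shTSC2 cells. VIM (-0.335, 0.129), KRT8 (-0.095) and KRT18 (0.055) did not pass there. In shTSC2-adapted cells against control 0 of the 6 passed, with differences from -0.41 (VIM) to 1.40 (CDH1). Of 8 macrophage markers, a cell type rich in lysosomes, 7 lay below the median gene on all arrays and 0 passed in any comparison. Their summed linear intensity was 291 to 293 in shTSC2-adapted cells, 309 to 329 in shTSC2 cells and 286 to 292 in control cells. Of 6 fibroblast and 4 endothelial markers, 0 passed in any comparison. Of 4 markers of the kidney cells used to package virus, NEFM rose in shTSC2 cells against control (0.99, adjusted p = 0.0130). NEFL (0.405, 0.237), INA (0.39, 0.567) and SALL1 (0.07, 0.748) did not pass there, and 0 of the 4 passed in the other comparisons. The sum of the 4 was 350 to 610 in shTSC2-adapted cells, 365 to 443 in shTSC2 cells and 284 to 287 in control cells. The part of these marker changes in the results that follow was not tested. In such bulk samples, fewer cells of a type and less RNA per cell cannot be told apart.

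Of the 49 genes, 47 had a mean level at or above the median gene, and TFEB and MAP1LC3B lay below it. The arrays of a group differed by a median of 0.11 for these genes in shTSC2-adapted cells, 0.18 in shTSC2 cells and 0.07 in control cells on the log2 scale. A gap of more than 0.3 between the arrays of a group was found for 7 members in shTSC2-adapted cells, 13 in shTSC2 cells and 0 in control cells. The widest gaps were those of ATP6AP1 (1.01) and NEU1 (0.93), both in shTSC2 cells.

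Promoters were read for TCACGTG, the sequence that the TFEB family binds. Windows from 250 bases before to 50 after the start of transcription were taken from the RefSeq promoter table of GRCh38.p14, which held 39 of the 49 members. No window was used for ATP6V0E1, ATP6V1A, ATP6V1B2, ATP6V1C1, ATP6V1H, CTSB, HEXA, LAMP2, RB1CC1 and UVRAG. TCACGTG, searched on both strands, lay in 10 of 39 members: ATG14, ATG3, ATP6V0D1, CLCN7, CTSA, CTSD, GAA, LAMP1, MCOLN1 and NEU1. By windows, it lay in 20.0% of the 50 windows of members and in 3.71% of all 35116 windows. The shorter CACGTG, which TCACGTG contains, lay in the same 10 members and in 7.26% of all windows. The variant TCATGTG lay in CTSA and WIPI2 and in 2.92% of all windows. A match is a description of these letters and not a site shown to be bound by the TFEB family or by any other factor.

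The windows of the 3 members that hold TCACGTG and passed the test in at least 1 comparison are printed beside those of ULK2 and CD68, which hold none and passed with large changes of opposite direction. Capitals mark each TCACGTG on either strand, and where it reads the same from both strands all of TCACGTGA is in capitals. The windows are LAMP1 at chr13:113296989-113297288 on the plus strand, MCOLN1 at chr19:7522374-7522673 on the plus strand, ATP6V0D1 at chr16:67481108-67481407 on the minus strand, ULK2 at chr17:19867887-19868186 on the minus strand and CD68 at chr17:7579388-7579687 on the plus strand, all GRCh38.p14 and printed 5′ to 3′ in the direction of the gene.
LAMP1: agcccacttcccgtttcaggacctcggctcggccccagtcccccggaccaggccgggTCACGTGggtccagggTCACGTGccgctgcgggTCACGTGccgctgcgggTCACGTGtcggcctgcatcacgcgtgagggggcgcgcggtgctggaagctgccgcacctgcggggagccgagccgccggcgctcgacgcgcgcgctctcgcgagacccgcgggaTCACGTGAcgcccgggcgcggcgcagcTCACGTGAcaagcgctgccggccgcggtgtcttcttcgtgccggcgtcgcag
MCOLN1: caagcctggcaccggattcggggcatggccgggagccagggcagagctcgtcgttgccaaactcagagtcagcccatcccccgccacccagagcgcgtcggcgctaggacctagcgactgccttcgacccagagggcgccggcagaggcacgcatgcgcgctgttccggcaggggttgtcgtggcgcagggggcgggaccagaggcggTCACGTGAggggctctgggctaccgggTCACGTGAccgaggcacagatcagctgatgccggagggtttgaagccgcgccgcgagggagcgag
ATP6V0D1: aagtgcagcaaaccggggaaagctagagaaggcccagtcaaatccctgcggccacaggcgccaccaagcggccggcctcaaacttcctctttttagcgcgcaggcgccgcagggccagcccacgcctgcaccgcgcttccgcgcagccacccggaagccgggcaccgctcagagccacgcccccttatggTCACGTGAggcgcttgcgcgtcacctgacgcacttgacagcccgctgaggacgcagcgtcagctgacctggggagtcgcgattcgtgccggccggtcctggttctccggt
ULK2: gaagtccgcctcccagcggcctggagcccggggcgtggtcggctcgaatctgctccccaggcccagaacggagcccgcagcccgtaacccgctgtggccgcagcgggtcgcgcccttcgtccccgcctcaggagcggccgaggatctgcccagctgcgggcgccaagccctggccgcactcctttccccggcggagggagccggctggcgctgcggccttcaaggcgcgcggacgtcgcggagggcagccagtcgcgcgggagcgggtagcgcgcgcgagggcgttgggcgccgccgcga
CD68: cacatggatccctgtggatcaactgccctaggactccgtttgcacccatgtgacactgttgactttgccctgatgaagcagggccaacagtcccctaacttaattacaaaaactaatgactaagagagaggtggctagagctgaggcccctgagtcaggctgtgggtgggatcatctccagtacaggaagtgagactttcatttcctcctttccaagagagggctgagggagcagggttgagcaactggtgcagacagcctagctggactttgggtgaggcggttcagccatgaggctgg
The LAMP1 window holds 6 sites, which begin 193, 177, 160, 143, 29 and 2 bases before the start. MCOLN1 holds 2 sites, 42 and 15 bases before the start, and ATP6V0D1 holds 1 site at 60 bases.

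In shTSC2 cells against control, 7 of the 49 genes rose and 12 fell at a limma adjusted p under 0.05, and 30 did not pass. These are 14.3% and 24.5% of the members, against 6.87% and 13.9% of all 18417 genes. The shares were closer to those of the genes at or above the median level, where 47 of the members lie and of which 10.2% rose and 22.5% fell. SQSTM1, CD68, ATG12, ATP6V1D, MAP1LC3B, ATG16L1 and LAMP1 rose. RB1CC1, ULK2, WIPI2, TFE3, NBR1, ATP6V1H, OPTN, ATP6V0D1, ATG13, PIK3C3, WIPI1 and ATP6V0E1 fell. At an unadjusted p under 0.05 there were 26 members, and 33.3% of all genes. The shTSC2 arrays lay wholly above control for 15 members and wholly below for 18, against 32.4% and 29.6% of all genes. The median difference of the members was -0.03, against 0.025 over all genes, and with quantile normalization the median of the members was 0.039, so the list had no common direction. Most of the 19 calls ended when either control array was left out, which leaves 1 array in that group. Calls over all genes also became fewer in those fits. The differences themselves kept their direction. Without control 1 and without control 2, ULK2 differed by -0.84 and -0.85, and ATP6V1H by -0.455 and -0.655. SQSTM1 and RB1CC1 alone of the 19 passed under all 14 alternative settings run.

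Against control, 0 of the 49 genes passed in shTSC2-adapted cells by limma, against 0.261% of all genes (0.0543% higher and 0.206% lower). At an unadjusted p under 0.05 there were 7 members, or 14.3% of them, against 12.6% of all genes. Differences of the members lay between -0.61 (NBR1) and 0.34 (GLA), with a median of -0.09 against -0.005 over all genes. NBR1 was lower with an adjusted p of 0.134, and it passed with array weights (0.0397) and with only the 4 arrays compared (0.0442). Leaving out either shTSC2 array repeats that last fit and is not a separate setting.

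Between shTSC2-adapted and shTSC2 cells, 4 of the 49 genes were higher in shTSC2-adapted cells (ULK2, RB1CC1, WIPI1 and OPTN) and 6 were lower (ATG12, MCOLN1, SQSTM1, LAMP1, BECN1 and ATP6V1D). These are 8.16% and 12.2% of the members, against 9.25% and 3.24% of all genes. Among genes at or above the median level, 15.3% were higher and 4.69% lower. At an unadjusted p under 0.05 there were 19 members, and 27% of all genes. The median of the members was -0.045, against -0.025 over all genes. This comparison shares the shTSC2 arrays with that of shTSC2 and control, so the values of a gene in both are given side by side and are not independent of each other. None of the 10 calls held under all 14 alternatives. With only the 4 arrays compared, 8 of the 10 ended (adjusted p 0.0541 to 0.0956), which left ATG12 and SQSTM1. Leaving out either control array repeats that fit. Without shTSC2-adapted 1, ATG12 and SQSTM1 differed by -0.58 and -0.505 and no longer passed.

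**Figure D1:**
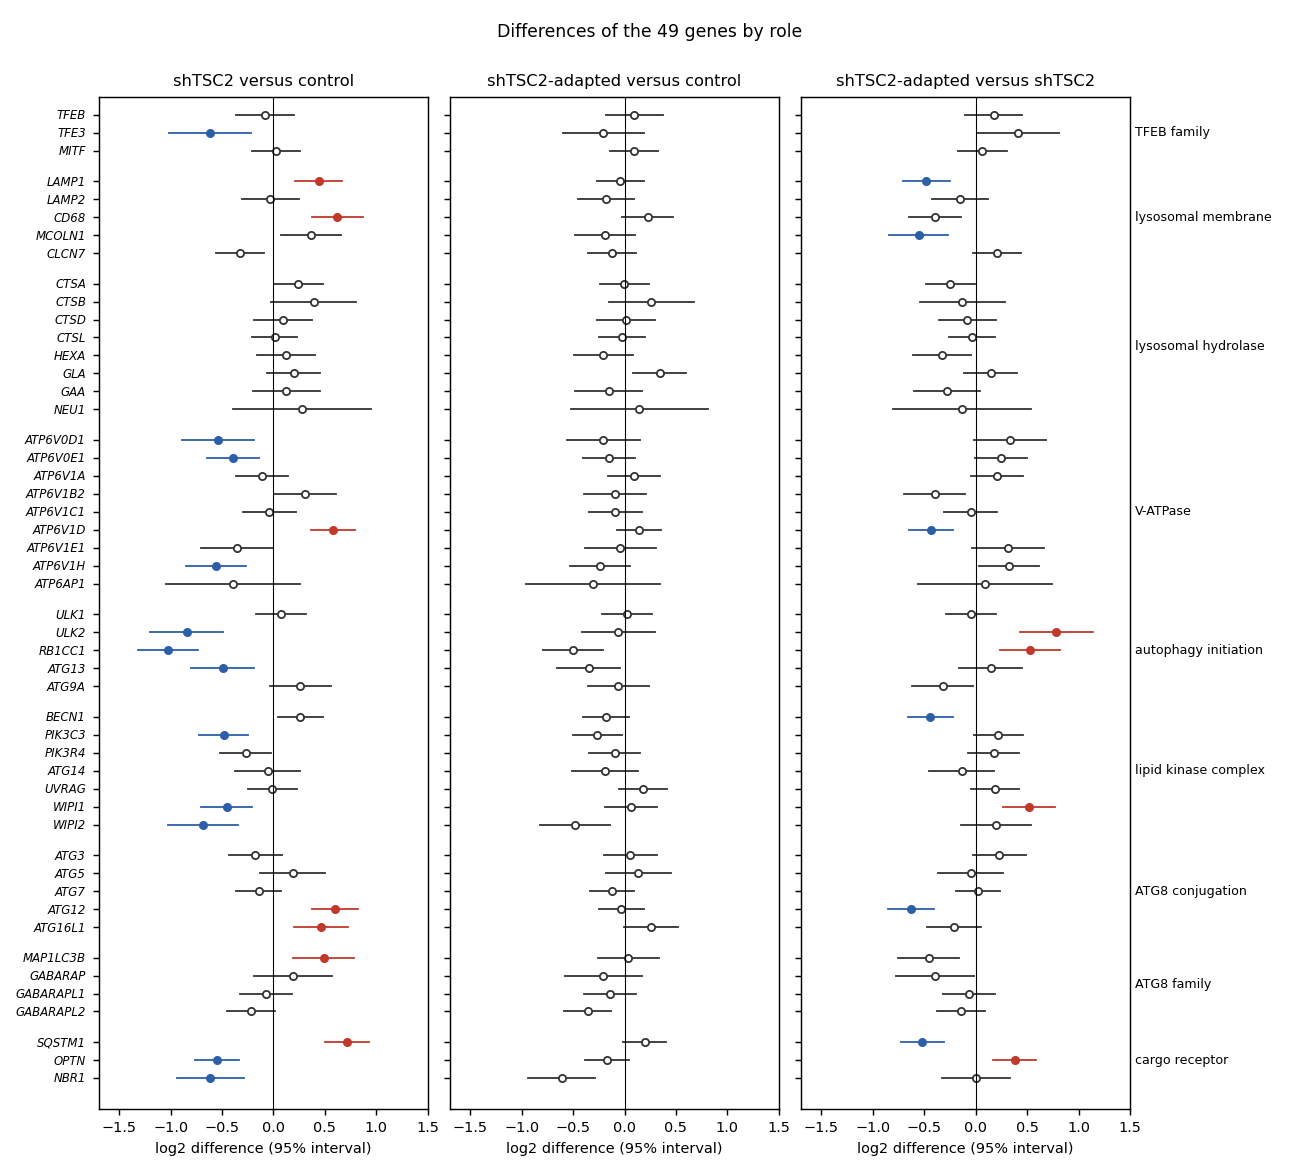
Log2 differences of the 49 genes (points) with 95% intervals of the limma model (lines), by role from top to bottom, in panels for shTSC2 against control (left), shTSC2-adapted against control (middle) and shTSC2-adapted against shTSC2 (right). Filled red points passed as higher and filled blue points as lower (7 and 12, 0 and 0, 4 and 6 by panel), and open points did not pass.

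The 3 transcription factors of the TFEB family did not move as one. TFEB, the member best known for inducing lysosomal genes, had 6.09 and 6.19 in shTSC2-adapted cells, 6.11 and 5.82 in shTSC2 cells and 6.07 and 6.02 in control cells on the log2 scale, so the shTSC2 and control arrays overlapped. Its difference was -0.08 ± 0.12 in shTSC2 cells against control (SE, 2 arrays a group, adjusted p = 0.692). In shTSC2-adapted cells it was 0.095 against control (0.841) and 0.175 against shTSC2 cells (0.402). MITF, the family member that governs melanocytes, had 7.86 and 7.94 in shTSC2-adapted cells, 7.75 and 7.92 in shTSC2 cells and 7.80 and 7.82 in control cells. All 3 differences of MITF were within 0.09, with adjusted p of 0.737 to 0.895. TFE3, which acts beside TFEB on the same promoters, had 7.54 and 7.33 in shTSC2-adapted cells, 7.28 and 6.77 in shTSC2 cells and 7.60 and 7.68 in control cells. Both shTSC2 arrays were below both control arrays and were themselves 0.51 apart. TFE3 fell by 0.615 ± 0.17 in shTSC2 cells against control (adjusted p = 0.0408), and without shTSC2 2 it did not pass (difference -0.36, adjusted p = 0.0966). In shTSC2-adapted cells TFE3 differed by -0.205 from control (0.715) and by 0.41 from shTSC2 cells (0.172).

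Of the 5 genes of the lysosomal membrane, 2 (40%) rose in shTSC2 cells against control, against 6.87% of all genes. In shTSC2-adapted against shTSC2 cells 2 (40%) were lower, against 3.24% of all genes. Among genes at or above the median level these were 10.2% and 4.69%. In this and the other roles, which hold few genes, a single gene moves the share widely. CD68, a heavily glycosylated membrane protein abundant in macrophages, had 8.07 and 7.88 in shTSC2-adapted cells, 8.41 and 8.33 in shTSC2 cells and 7.80 and 7.70 in control cells. It rose by 0.62 ± 0.11 in shTSC2 cells (adjusted p = 0.00674). The summed intensity of the 8 macrophage markers, given above, was also highest in shTSC2 cells, and its part in this rise was not tested. LAMP1, a main structural protein of the lysosomal membrane, had 8.93 and 9.02 in shTSC2-adapted cells, 9.49 and 9.42 in shTSC2 cells and 9.07 and 8.96 in control cells. Only the shTSC2 arrays stood apart. LAMP1 rose by 0.44 ± 0.10 in shTSC2 cells against control (0.0180) and was lower in shTSC2-adapted than in shTSC2 cells (difference -0.48, adjusted p = 0.0211), and it differed by -0.04 between shTSC2-adapted and control cells (0.931). MCOLN1, the calcium channel of the lysosome, had 7.87 and 7.97 in shTSC2-adapted cells, 8.62 and 8.33 in shTSC2 cells and 8.17 and 8.05 in control cells. It was lower in shTSC2-adapted than in shTSC2 cells (difference -0.555 ± 0.12, adjusted p = 0.0277), and its difference of 0.365 between shTSC2 and control did not pass (0.0779). LAMP2, the partner of LAMP1 that also serves chaperone-mediated autophagy, did not pass in any comparison, and its differences were -0.03 in shTSC2 cells against control, and in shTSC2-adapted cells -0.18 against control and -0.15 against shTSC2 cells. CLCN7, the chloride-proton exchanger of the lysosome, had the largest negative difference of this group in shTSC2 cells against control, -0.325 (0.0600).

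None of the 8 acid hydrolases passed in any comparison by limma. At an unadjusted p under 0.05 there was 1 in shTSC2 cells against control (33.3% of all genes), 1 in shTSC2-adapted cells against control (12.6%) and 2 in shTSC2-adapted against shTSC2 cells (27%). In shTSC2 against control all 8 differences were positive, from 0.01 (CTSL) to 0.39 (CTSB), with a median of 0.16, and the arrays of the groups overlapped for 5 of the 8. That shared sign depended on shTSC2 1: without it CTSD (-0.055), CTSL (-0.02), HEXA (-0.035), GAA (-0.04) and NEU1 (-0.185) had negative differences, and CTSL was at -0.05 with each array centred on its median. CTSB, a cysteine protease, had 10.15 and 10.40 in shTSC2-adapted cells, 10.67 and 10.14 in shTSC2 cells and 9.99 and 10.04 in control cells, and its adjusted p in shTSC2 cells was 0.172. NEU1, a sialidase, had 9.30 and 8.82 in shTSC2-adapted cells, 9.66 and 8.73 in shTSC2 cells and 8.90 and 8.93 in control cells. The arrays of both knockdown groups thus lay on either side of control for NEU1, and in fits without shTSC2 2 both genes passed (0.655 and adjusted p = 0.0168 for CTSB, 0.745 and 0.0376 for NEU1). GLA, the alpha-galactosidase lacking in Fabry disease, had the largest positive difference of the role in shTSC2-adapted cells against control, 0.34 ± 0.11 (0.258). HEXA, a subunit of beta-hexosaminidase, had the largest negative differences of the role in shTSC2-adapted cells, -0.205 against control (0.569) and -0.325 against shTSC2 (0.133). The remaining genes, the proteases CTSA, CTSD and CTSL and the glucosidase GAA, had differences between 0.01 and 0.24 in shTSC2 against control.

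The V-ATPase acidifies the lysosome. It is built of a membrane sector that carries protons and a cytosolic sector that hydrolyses ATP. Of its 9 genes, 1 rose (11.1%) and 3 fell (33.3%) in shTSC2 cells against control. Over all genes 6.87% rose and 13.9% fell, and among genes at or above the median level 10.2% and 22.5%. In shTSC2-adapted against shTSC2 cells 1 was lower (11.1%), against 3.24% of all genes and 4.69% of those at or above the median level. ATP6V1D, a subunit of the central stalk, had 9.57 and 9.66 in shTSC2-adapted cells, 10.04 and 10.06 in shTSC2 cells and 9.48 and 9.47 in control cells. It rose by 0.575 ± 0.09 in shTSC2 cells against control (adjusted p = 0.00496) and was lower in shTSC2-adapted than in shTSC2 cells (difference -0.435, adjusted p = 0.0236). ATP6V1H, a regulatory subunit of the cytosolic sector, had 8.25 and 8.28 in shTSC2-adapted cells, 7.81 and 8.08 in shTSC2 cells and 8.60 and 8.40 in control cells, a fall of 0.555 ± 0.12 in shTSC2 cells (0.0189). The other genes that fell belong to the membrane sector. ATP6V0D1 had 8.29 and 8.43 in shTSC2-adapted cells, 8.24 and 7.81 in shTSC2 cells and 8.62 and 8.51 in control cells, a fall of 0.54 ± 0.15 in shTSC2 cells (0.0415). ATP6V0E1 had 10.47 and 10.70 in shTSC2-adapted cells, 10.32 and 10.36 in shTSC2 cells and 10.77 and 10.70 in control cells, a fall of 0.395 ± 0.11 in shTSC2 cells (0.0403). The shTSC2 arrays were below both control arrays for these 3 genes and above both for ATP6V1D. With quantile normalization only ATP6V1H of the 3 falls still passed. Over the 14 alternative settings the call ended in 8 for ATP6V0D1, 7 for ATP6V0E1 and 4 for ATP6V1H. Without shTSC2 2 the difference of ATP6V0D1 from control was -0.325. ATP6AP1, an accessory subunit, had 8.71 and 8.80 in shTSC2-adapted cells, 9.17 and 8.16 in shTSC2 cells and 9.06 and 9.06 in control cells. Its shTSC2 arrays lay on either side of every other array, and its difference between shTSC2-adapted and shTSC2 cells was 0.09 with both shTSC2 arrays, 0.595 without shTSC2 1 and -0.415 without shTSC2 2. In shTSC2-adapted cells against control the differences of the role ran from -0.305 (ATP6AP1, adjusted p = 0.750) to 0.14 (ATP6V1D, 0.615), and against shTSC2 the largest positive one was 0.335 (ATP6V0D1, 0.202). ATP6V1A and ATP6V1B2, the subunits of the ATP-hydrolysing ring, differed between shTSC2 and control by -0.11 and 0.31, and ATP6V1C1 and ATP6V1E1 of the stalks by -0.04 and -0.355, and none of these passed.

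Of the 5 genes that start autophagy, 3 (60%) fell in shTSC2 cells against control, against 13.9% of all genes. In shTSC2-adapted against shTSC2 cells 2 (40%) were higher, against 9.25% of all genes. Among genes at or above the median level these were 22.5% and 15.3%. RB1CC1, also called FIP200, the scaffold of the ULK kinase complex, had 8.59 and 8.43 in shTSC2-adapted cells, 7.85 and 8.12 in shTSC2 cells and 8.95 and 9.07 in control cells. The 3 groups did not overlap, with shTSC2-adapted cells in between. RB1CC1 fell by 1.025 ± 0.12 in shTSC2 cells against control, to 0.491 of the control intensity (adjusted p = 0.00180). It was higher by 0.525 in shTSC2-adapted than in shTSC2 cells (0.0342), a call that ended in 9 of the 14 alternative settings. Its difference of -0.50 between shTSC2-adapted and control cells did not pass (0.150). ULK2, one of the related kinases of the complex, had 7.33 and 7.66 in shTSC2-adapted cells, 6.54 and 6.88 in shTSC2 cells and 7.56 and 7.55 in control cells. The shTSC2 arrays were below all others. ULK2 fell by 0.845 ± 0.15 in shTSC2 cells against control (0.00793), was higher by 0.785 in shTSC2-adapted than in shTSC2 cells (0.0175), and differed by -0.06 between shTSC2-adapted and control cells (0.936). ATG13, the regulatory subunit that mTORC1 phosphorylates, had 8.15 and 8.48 in shTSC2-adapted cells, 8.08 and 8.26 in shTSC2 cells and 8.65 and 8.68 in control cells, a fall of 0.495 ± 0.13 in shTSC2 cells (0.0360). ULK1, the better known kinase of the complex, had 7.32 and 7.34 in shTSC2-adapted cells, 7.30 and 7.45 in shTSC2 cells and 7.38 and 7.23 in control cells, and its differences did not pass (0.07 in shTSC2 cells against control, and in shTSC2-adapted cells 0.025 against control and -0.045 against shTSC2 cells). ATG9A, which brings membrane to the growing structure, had the largest positive difference of the role in shTSC2 against control (0.26, adjusted p = 0.198) and the largest negative one in shTSC2-adapted against shTSC2 (-0.32, 0.153).

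The next step is the lipid kinase complex around PIK3C3, whose product draws in the WIPI proteins. Of these 7 genes, 3 (42.9%) fell in shTSC2 cells against control, against 13.9% of all genes and 22.5% of those at or above the median level. WIPI2, which binds the lipid and recruits ATG16L1, had 7.63 and 7.78 in shTSC2-adapted cells, 7.71 and 7.30 in shTSC2 cells and 8.24 and 8.14 in control cells. It fell by 0.685 ± 0.15 in shTSC2 cells (adjusted p = 0.0156), and its difference of -0.485 in shTSC2-adapted cells against control did not pass (0.221), although both arrays were below control. PIK3C3, the catalytic subunit, had 8.23 and 8.17 in shTSC2-adapted cells, 8.07 and 7.89 in shTSC2 cells and 8.47 and 8.46 in control cells, a fall of 0.485 ± 0.10 in shTSC2 cells (0.0144). WIPI1, a relative of WIPI2, had 7.27 and 7.07 in shTSC2-adapted cells, 6.69 and 6.61 in shTSC2 cells and 7.06 and 7.15 in control cells. It fell by 0.455 ± 0.11 in shTSC2 cells (0.0228) and was higher by 0.52 in shTSC2-adapted than in shTSC2 cells (0.0221), and the shTSC2-adapted and control arrays overlapped. BECN1, the Beclin subunit that assembles the complex, had 7.95 and 7.97 in shTSC2-adapted cells, 8.34 and 8.46 in shTSC2 cells and 8.13 and 8.15 in control cells. Its difference of 0.26 in shTSC2 against control did not pass (0.0956), and it was lower in shTSC2-adapted than in shTSC2 cells (difference -0.44 ± 0.09, adjusted p = 0.0245). The complex thus had subunits with differences of both signs. PIK3R4, the regulatory subunit, differed by -0.27 between shTSC2 and control (0.120), and ATG14 and UVRAG, which direct the complex to its membranes, by -0.055 and -0.01. UVRAG had the largest positive difference of the role in shTSC2-adapted against control, 0.18 (0.542).

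Lipidation of the ATG8 family, the small proteins that coat the autophagosome, needs a conjugation machinery. Of its 5 genes, 2 (40%) rose in shTSC2 cells against control, against 6.87% of all genes and 10.2% of those at or above the median level. ATG12, the ubiquitin-like protein of the E3-like complex, had 7.34 and 7.43 in shTSC2-adapted cells, 7.96 and 8.06 in shTSC2 cells and 7.41 and 7.42 in control cells. It rose by 0.595 ± 0.09 in shTSC2 cells against control (adjusted p = 0.00499) and was lower in shTSC2-adapted than in shTSC2 cells (difference -0.625, adjusted p = 0.00770), with a difference of -0.03 between shTSC2-adapted and control (0.951). ATG16L1, its partner, had 6.90 and 7.01 in shTSC2-adapted cells, 7.06 and 7.27 in shTSC2 cells and 6.64 and 6.76 in control cells, a rise of 0.465 ± 0.11 in shTSC2 cells (0.0250). For both genes the shTSC2 arrays were above all others. ATG16L1 lay between in shTSC2-adapted cells, where its difference of 0.255 from control did not pass (0.411). ATG5, which is joined to ATG12, differed by 0.185 between shTSC2 and control (0.392). ATG3, the E2-like enzyme, had the largest negative difference of the role there (-0.175, 0.317) and the largest positive one in shTSC2-adapted against shTSC2 (0.23, 0.232). ATG7, the E1-like enzyme, had the largest negative difference in shTSC2-adapted against control (-0.12, 0.685).

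Of the 4 genes of the ATG8 family itself, 1 (25%) rose in shTSC2 cells against control, against 6.87% of all genes. MAP1LC3B, the LC3 protein used as the standard marker of autophagosomes, had 6.19 and 5.85 in shTSC2-adapted cells, 6.48 and 6.47 in shTSC2 cells and 6.03 and 5.94 in control cells. It rose by 0.49 ± 0.13 in shTSC2 cells (adjusted p = 0.0327), at a level below the median gene, and the call ended without shTSC2 1 (0.0732) and without shTSC2 2 (0.0705). A second probe set, annotated to MAP1LC3B and the near-identical MAP1LC3B2, was not used for the test because it names both genes. It had 7.91 and 7.83 in shTSC2-adapted cells, 8.05 and 8.11 in shTSC2 cells and 7.65 and 7.73 in control cells, a difference of 0.39 between shTSC2 and control. The level of MAP1LC3B is therefore uncertain between these copies. GABARAP, GABARAPL1 and GABARAPL2, its relatives, differed by 0.19, -0.075 and -0.22 between shTSC2 and control and did not pass. GABARAPL2 had the largest negative difference of the role in shTSC2-adapted against control (-0.36, adjusted p = 0.185).

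All 3 cargo receptors, which tie ubiquitin-marked cargo to the ATG8 family, passed in shTSC2 cells against control. There was 1 rise (33.3%) and 2 falls (66.7%), against 6.87% and 13.9% of all genes. Among genes at or above the median level 10.2% rose and 22.5% fell. SQSTM1, or p62, had 10.89 and 10.92 in shTSC2-adapted cells, 11.41 and 11.44 in shTSC2 cells and 10.73 and 10.69 in control cells. The groups did not overlap and the arrays of each lay within 0.04 of each other. SQSTM1 rose by 0.715 ± 0.09 in shTSC2 cells, to 1.64 times the control intensity (adjusted p = 0.00201). It was lower in shTSC2-adapted than in shTSC2 cells (difference -0.52, adjusted p = 0.0117), and its difference of 0.195 from control there did not pass (0.438). OPTN, a receptor for damaged mitochondria and bacteria, had 9.04 and 9.06 in shTSC2-adapted cells, 8.69 and 8.65 in shTSC2 cells and 9.19 and 9.25 in control cells. It fell by 0.55 ± 0.09 in shTSC2 cells (0.00561) and was higher by 0.38 in shTSC2-adapted than in shTSC2 cells (0.0347). The second of these calls ended in 12 of the 14 alternative settings. NBR1, a relative of SQSTM1, had 8.25 and 8.28 in shTSC2-adapted cells, 8.45 and 8.07 in shTSC2 cells and 8.79 and 8.96 in control cells. It fell by 0.615 ± 0.14 in shTSC2 cells (0.0200), and its differences were -0.61 between shTSC2-adapted and control (0.134) and 0.005 between shTSC2-adapted and shTSC2 (0.984).

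**Figure D2:**
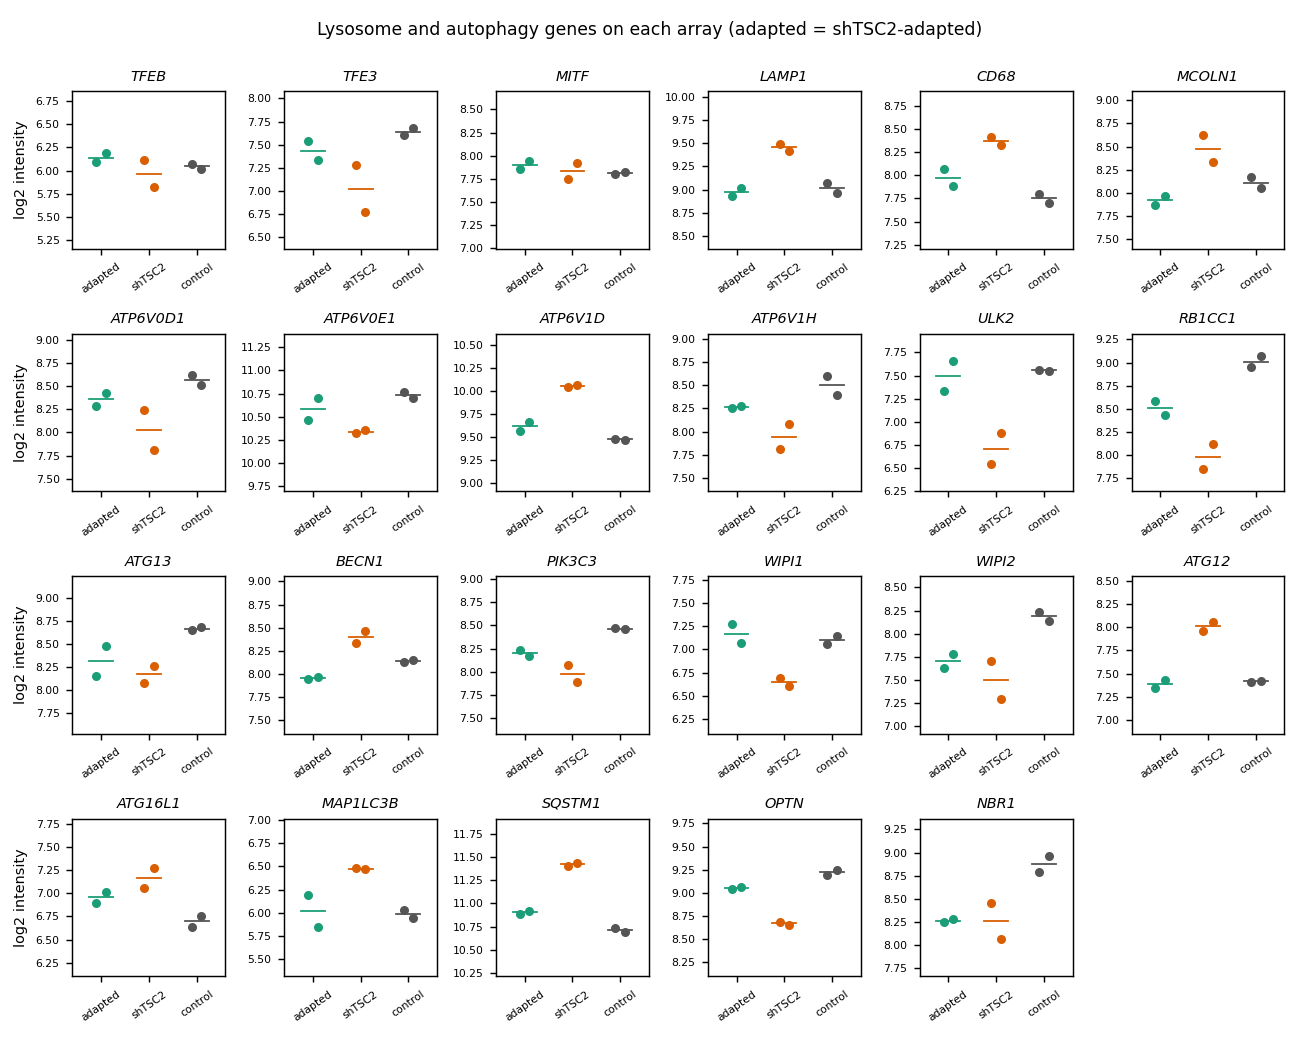
Log2 intensity on each array (points) and the mean of each group (lines) for the 21 genes that passed in at least 1 comparison and for TFEB and MITF, with shTSC2-adapted, shTSC2 and control from left to right, and with every panel spanning the same range. LAMP1, ATP6V1D, ATG12 and SQSTM1 are highest in shTSC2 cells, ULK2, WIPI1, RB1CC1 and OPTN are lowest there, and NBR1 and WIPI2 are below control in both knockdown groups.

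The members with TCACGTG in the promoter window are described beside those without. Of the 10 with it, 1 rose (LAMP1) and 1 fell (ATP6V0D1) in shTSC2 cells against control, with a median difference of 0.11. Of the 29 without it, 6 rose and 8 fell, with a median of -0.075. Over all genes 6.87% rose and 13.9% fell, with a median of 0.025. In shTSC2-adapted cells against control, 0 of either set passed, with medians of -0.08 with it and -0.06 without. In shTSC2-adapted against shTSC2 cells, 0 of the 10 were higher and 2 lower (median -0.135). Of the 29, 3 were higher and 4 lower (median 0.005), against 9.25% and 3.24% of all genes (median -0.025). LAMP1 and MCOLN1, with 6 and 2 sites, were lower in shTSC2-adapted than in shTSC2 cells, and ATP6V0D1, with 1 site, had a difference of 0.335 that did not pass.

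The members that fell in shTSC2 cells had a longer median span than those that rose. The median span in the genome was 47.6 kb for the 12 that fell, 21.9 kb for the 7 that rose and 27.1 kb for the 30 that did not pass, with spans of 14.6 to 133 kb among those that fell and 2.47 to 44 kb among those that rose. RB1CC1 spans 92.0 kb, ULK2 97.1 kb and PIK3C3 133 kb, against 2.47 kb for CD68, 13.4 kb for ATG12 and 31.7 kb for SQSTM1. Across the 49 members the rank correlation of span with the shTSC2 minus control difference was -0.49, and across 16902 protein-coding genes it was -0.33. These are descriptions across genes, which share the arrays and are not independent replicates. The values were 0.52 over the members and 0.33 over all protein-coding genes for the shTSC2-adapted minus shTSC2 difference, and -0.11 and -0.10 for the shTSC2-adapted minus control difference. With the trend over gene length subtracted from every gene, 7 members instead of 12 fell in shTSC2 cells. ATG13 (-0.36), ATP6V0D1 (-0.45), ATP6V0E1 (-0.28), ATP6V1H (-0.31) and PIK3C3 (-0.24) no longer passed, nor did MAP1LC3B (0.44) among the genes that rose (adjusted p 0.0501 to 0.148 over these 6). RB1CC1 (-0.82), ULK2 (-0.64), WIPI2 (-0.59) and TFE3 (-0.65) still passed in that fit, as did SQSTM1 (0.77).

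**Figure D3:**
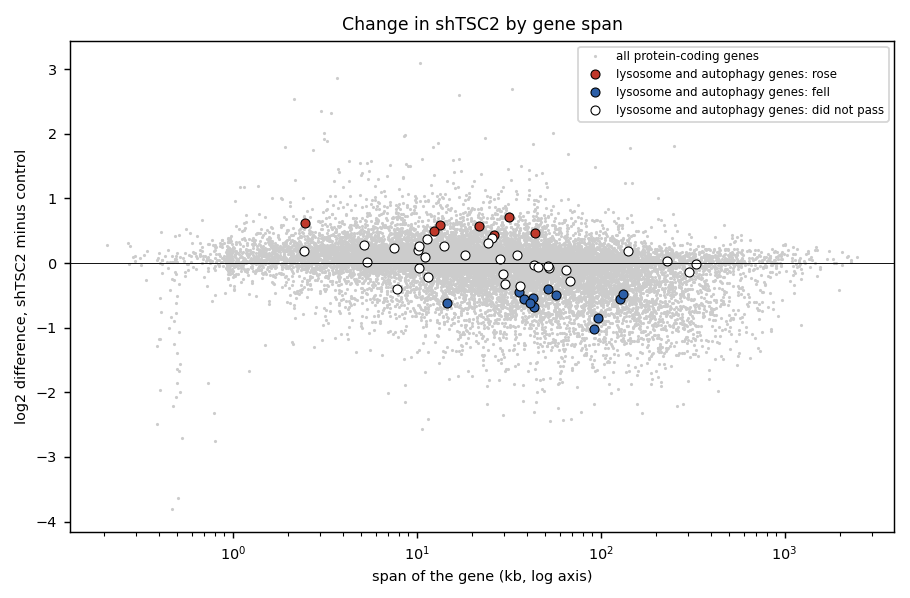
Log2 difference of shTSC2 minus control (vertical) against the span of the gene in kb on a log axis (horizontal) for all protein-coding genes (grey) and the 49 lysosome and autophagy genes (large points, red where they rose, blue where they fell, white where they did not pass). The genes that fell have a median span of 47.6 kb and those that rose of 21.9 kb, and grey points lie lower at longer spans.

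A wider list of the same pathway gave 138 further measured genes of 150 listed. In shTSC2 cells against control 16 rose and 25 fell, 11.6% and 18.1%, against 6.87% and 13.9% of all genes and 10.2% and 22.5% of genes at or above the median level. Fewer of the 138 passed when either control array was left out, as did fewer of all genes. Among genes of autophagy, 1 of 33 rose and 10 fell. ATG10, the E2-like enzyme of ATG12, fell by 1.20 (adjusted p = 0.00162) and ATG2B, a lipid transfer protein, fell by 1.01 (0.00197), while ATG16L2 rose by 0.525 (0.0158). Of 12 further cargo receptors 5 fell and 1 rose, NCOA4, the ferritin receptor (0.415, 0.0467), a call that held in 9 of 14 alternatives. CALCOCO2, or NDP52, a receptor for bacteria and mitochondria, had 8.44 and 8.51 in shTSC2-adapted cells, 7.36 and 6.81 in shTSC2 cells and 8.66 and 8.69 in control cells. CALCOCO2 fell by 1.59 in shTSC2 cells (0.00117), and RETREG1, a receptor for the endoplasmic reticulum, fell by 1.19 (0.000805).

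Among 36 further hydrolases and their helpers, 7 rose (19.4%) and 3 fell (8.33%) in shTSC2 cells against control. For this and the roles below, 6.87% of all genes rose and 13.9% fell. Among genes at or above the median level these were 10.2% and 22.5%. CTSC, which activates granule proteases, rose by 0.835 (adjusted p = 0.0148), and PPT1, a thioesterase, rose by 0.745 (0.00239). HGSNAT, an acetyltransferase of heparan sulfate breakdown, fell by 1.26 (0.000805), and CTSO, a cysteine protease, fell by 0.55 (0.0263). Of 19 further V-ATPase genes 2 rose (10.5%) and 4 fell (21.1%). ATP6V1F rose by 0.635 (0.0131) and ATP6V1G1 by 0.425 (0.0332). DMXL1, a subunit of an assembly factor of the pump, fell by 0.995 (0.00122), and ATP6V0C, the ring that carries the protons, fell by 0.775 (0.0211). In the lysosomal membrane 3 of 21 rose (14.3%) and 1 fell (4.76%). CD63, a tetraspanin, and CTNS, the cystine exporter, both rose by 0.46 (0.0157 for CD63 and 0.0137 for CTNS), and LMBRD1, of cobalamin export, fell by 1.34 (0.00177). In enzyme sorting 1 of 9 (11.1%) rose, the adaptor GGA2 (0.415, 0.0418), and 1 (11.1%) fell, GNPTAB, which makes the mannose 6-phosphate tag (-0.695, 0.00849). Of 8 further genes of the TFEB family, its control and its targets, 1 rose (12.5%) and 1 fell (12.5%). FLCN, which acts on the Rag GTPases, rose by 0.395 (0.0327), and ZKSCAN3, a repressor of autophagy genes, fell by 0.86 (0.00468). Of the genes named here, GGA2 passed in 6 of 14 alternatives, ATP6V1G1 in 9 and ATP6V0C in 11. ATP6V1F, CD63, CTNS and GNPTAB passed in 12 each, CTSC in 13, and PPT1, HGSNAT, DMXL1 and LMBRD1 in all 14. FLCN passed in 8 of the 13 that held it, CTSO in 10 and ZKSCAN3 in 12.

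In shTSC2-adapted cells against control, RRAGD alone of the 138 (0.725%) passed as higher and 0 as lower by limma. Over all genes 0.0543% were higher and 0.206% lower. At an unadjusted p under 0.05 there were 22 of the 138, and 12.6% of all genes. RRAGD, a Rag GTPase that brings TFEB to the lysosome, had 8.46 and 8.64 in shTSC2-adapted cells, 7.88 and 7.82 in shTSC2 cells and 7.66 and 7.78 in control cells. It was higher by 0.83 ± 0.11 than in control cells (adjusted p = 0.0384) and by 0.70 than in shTSC2 cells (0.00758). The first of these calls ended when either control array or either shTSC2-adapted array was left out. Against shTSC2 cells, 19 of the 138 were higher in shTSC2-adapted cells and 8 lower. These are 13.8% and 5.8%, against 9.25% and 3.24% of all genes and 15.3% and 4.69% of genes at or above the median level. Without shTSC2-adapted 1 the counts were 10 and 0. Of the 33 genes of autophagy 9 (27.3%) were higher and 0 lower, and of the 12 cargo receptors 3 (25%) and 0. VAMP8, which fuses the autophagosome with the lysosome, had 8.97 and 8.92 in shTSC2-adapted cells, 7.48 and 7.21 in shTSC2 cells and 8.23 and 8.22 in control cells, so the shTSC2-adapted arrays were above and the shTSC2 arrays below control. It was higher by 1.60 in shTSC2-adapted than in shTSC2 cells (0.00111), and ATG10 by 1.025 (0.00545). CALCOCO2 was higher there by 1.39 (0.00384) and RETREG1 by 1.19 (0.00222). DMXL1 (0.81, 0.00493), its partner WDR7 (0.59, 0.0315), HGSNAT (0.645, 0.0154), the lysosomal phospholipase PLA2G15 (0.50, 0.0475), LMBRD1 (0.735, 0.0270) and GNPTAB (0.61, 0.0228) were higher too. The asparagine endopeptidase LGMN (-0.625, 0.0275), PPT1 (-0.61, 0.00927), CD63 (-0.46, 0.0245) and ATP6V0A1 of the membrane sector of the pump (-0.40, 0.0470) were lower. Among these, PLA2G15 passed in 3 of 14 alternatives, ATP6V0A1 in 5, CD63 and WDR7 in 7 each, GNPTAB and LMBRD1 in 8 each, LGMN in 9, HGSNAT in 12, PPT1 in 13 and DMXL1 in all 14. These genes share the shTSC2 arrays with the comparison to control, as the members do.

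**Figure D4:**
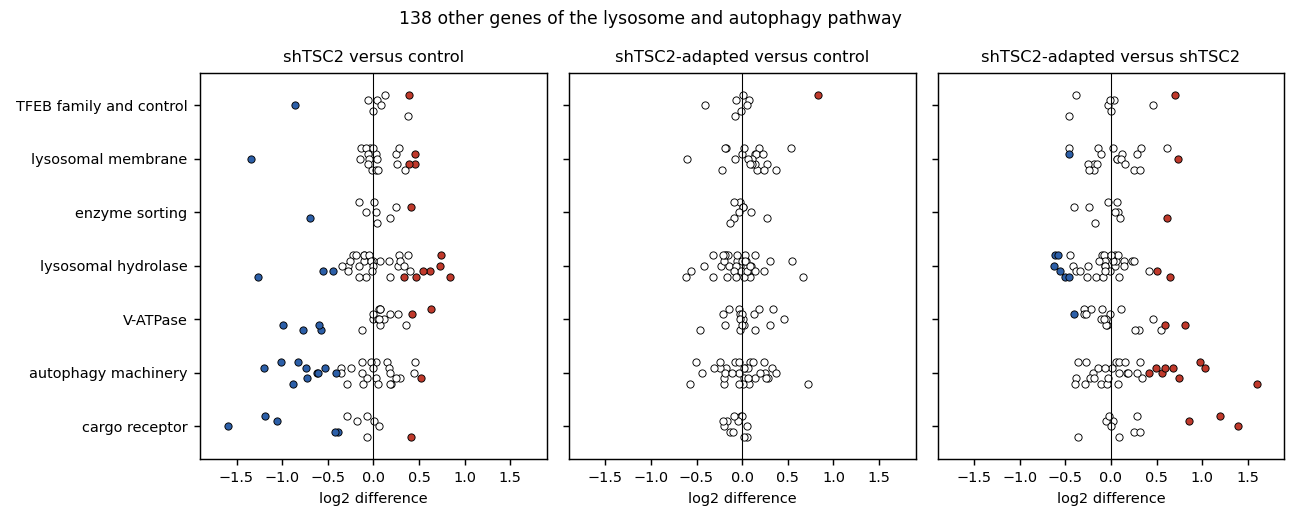
Log2 differences of 138 further genes of the pathway, 1 point a gene in rows by role, with shTSC2 against control on the left, shTSC2-adapted against control in the middle and shTSC2-adapted against shTSC2 on the right. Red points passed as higher and blue points as lower (16 and 25, 1 and 0, 19 and 8 by panel), and white points did not pass.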

How the data were processed

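Total RNA (100 ng) was extracted with Trizol and labelled by a whole-transcript protocol, per the labels. The deposited table holds 1 linear intensity per probe set and array, made with RMA (version not stated) per the submitters' processing notes. Because RMA equalises the arrays, it can hide a shift common to most genes. Log2 of the deposited intensities was used. Of 33297 probe sets, 19460 name 1 gene, 1754 several and 12083 are unnamed here; keeping the highest-mean probe set per gene left 18417 genes.

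In R 4.3.3, limma 3.58.1 (lmFit, contrasts.fit, eBayes) fitted each gene on all 6 arrays together, which leaves 3 residual degrees of freedom. Two-sided p-values were adjusted over 18417 genes by Benjamini-Hochberg with a threshold of 0.05, and intervals are 95%. The fit was run on simulated data with independent arrays and spreads drawn from its own prior. That run cannot show how the calls fare if the arrays of a group are not independent. The members, gene lists, tests and named genes were chosen with earlier results of these data known. Named were the TFEB family, in every other role each member that passed and the largest positive and negative differences, and up to 2 rises and 2 falls per role of the further genes. Gene spans and promoters came from RefSeq tables of GRCh38.p14. Alternatives changed the normalization, filters, weights, arrays, length trend and replicate block. Arrays have no depth, and 2 arrays a group limit the precision.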

Additional observations from a re-analysis of the deposited data

How the results depend on the processing

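Across 14 alternatives, RB1CC1 and SQSTM1 alone among the 19 member calls of shTSC2 against control, and 0 of 10 of shTSC2-adapted against shTSC2, passed each time. No called difference changed sign. The median of the members in shTSC2 against control, -0.03, was 0.039 with quantile normalization, -0.09 with each array centred on its median and 0.065 with the length trend removed, where 7 members fell instead of 12. In shTSC2-adapted against control, 1 member, NBR1, was lower with only the 4 arrays compared and 1 with array weights, and the median was -0.135 with centred arrays. In shTSC2-adapted against shTSC2, the number higher was 2 with quantile normalization, 2 with array weights, 2 with the length trend removed and 0 with only the 4 arrays compared, where 2 were lower, and the median was -0.09 with quantile normalization. ATP6AP1 had -0.415 (adjusted p = 0.0477) there without shTSC2 2 and 0.595 (0.0168) without shTSC2 1, against 0.09 with all arrays. The causes of these shifts were not tested.

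Leaving out 1 array at a time gave 1 to 8 members higher and 1 to 12 lower in shTSC2 against control (median -0.065 to -0.005), 0 higher and 0 to 1 lower in shTSC2-adapted against control (-0.10 to -0.04), and 0 to 6 higher and 1 to 8 lower in shTSC2-adapted against shTSC2 (-0.065 to 0.055). A group left with 1 array was assumed to vary like the others. Of the 138 further genes, 10 instead of 16 rose in shTSC2 with centred arrays, and 13 instead of 8 were lower in shTSC2-adapted than in shTSC2 cells with quantile normalization. With only the 4 arrays compared, that comparison gave 11 higher and 3 lower instead of 19 and 8.

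The array numbers were not taken as pairs, since only 1 of the 3 pairs of groups had deviations that correlated above 0.1 (correlations across genes 0.21 for shTSC2-adapted and shTSC2, -0.19 for shTSC2-adapted and control, -0.10 for shTSC2 and control). With the number as a replicate block, 7 members rose and 11 fell in shTSC2 against control, with ATP6V0E1 lost (adjusted p = 0.0569). TSC2 did not pass in shTSC2-adapted against control (0.0515), nor PLA2G15 (0.0628) and ATP6V0A1 (0.0748) in shTSC2-adapted against shTSC2. In shTSC2-adapted against control 0 rose and 0 fell, and against shTSC2 3 were higher and 6 lower, with OPTN lost (0.0590).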

Other observations

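NEU1 has 3 probe sets on the array, of which the other 2 hold the same values as each other. They had 9.12 and 8.76 in shTSC2-adapted cells, 9.53 and 8.65 in shTSC2 cells and 8.70 and 8.82 in control cells, so the wide gap between the shTSC2 arrays recurs in them. Their difference between shTSC2 and control was 0.33, against 0.28 for the probe set that was tested.

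ATP6AP1, an accessory subunit of the V-ATPase, had one shTSC2 array above and one below all other arrays, at 9.17 and 8.16, and control arrays of 9.06 and 9.06. Leaving out shTSC2 1 or shTSC2 2 turned its difference between shTSC2-adapted and shTSC2 cells from 0.595 to -0.415, both past the threshold. No other member changed direction between calls in this way.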
